A study of Mus musculus with 35 samples.

Results

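The genes followed here are widely described as direct targets of STAT5, and they are Cish, Socs1, Socs2, Socs3, Pim1, Pim2 and Osm. These 7 genes were chosen by name, each was found once by its Ensembl identifier among the 48709 genes of the count tables, and all 7 passed the filter on low counts. The cells were OT-I CTLs, a culture of cytotoxic CD8+ T cells grown from mice with a single transgenic T cell receptor for an ovalbumin peptide. All libraries came from cells that had been primed with antibodies to CD3 and CD28 and expanded in IL-2, so the cells without IL-2 had been withdrawn from it. The 35 libraries fell into 7 groups of 5 biological replicates. One group was taken at the start (0 h). The other 6 were cultured for 24 h, with 200 IU/mL murine IL-2 or with none, in medium set to pH 7.4, pH 7 or pH 6.6. The acidic media were made with hydrochloric acid, and dead cells were removed over Ficoll before the RNA was extracted. The comparisons ask how far the RNA of these genes depended on IL-2, and whether that dependence held when the medium was acidic.

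IL-2 binds a receptor whose JAK1 and JAK3 kinases phosphorylate STAT5, which then enters the nucleus and switches on genes with its binding motif. Some of those genes feed back on the same pathway. CIS (from Cish) and the SOCS proteins are inducible brakes that bind receptors or JAK kinases, whereas PIM1 and PIM2 are serine/threonine kinases that favour survival and growth and need no activation step once they are made. Oncostatin M (Osm) is a secreted cytokine of the interleukin-6 family and a classical early STAT5 target in blood cells. SOCS3 differs from the others in its wiring, since it is also a feedback product of STAT3 and mainly restrains receptors that use the gp130 chain.

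In GRCm38 (GENCODE M21), Cish lies at chr9:107296026-107302784, Socs1 at chr16:10782240-10785536, Socs2 at chr10:95385362-95417180 and Socs3 at chr11:117966079-117970047. Pim1 lies at chr17:29490753-29496112, Pim2 at chrX:7878262-7883432 and Osm at chr11:4236420-4241026. Reads with several alignments are missing from the counts. The share of 50-base windows unique to the gene was 95.47% for Socs2, 98.43% for Pim2 and 99.86% for Cish, and 100% for Socs1, Socs3, Pim1 and Osm. On the opposite strand, Gm17040 overlaps Cish and had at most 46 counts in a library, against at least 836 for Cish, and Gm26885 overlaps Pim1 and had at most 5 counts. Exons of opposite-strand genes cover 11.53% of the exon bases of Cish and 14.52% of those of Pim1. The strand setting of the counting is not given, so these low counts do not show whether reads in the overlaps were lost.

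The total count on genes was 16721319 to 34033340 per library, and the lowest count of any of the 7 genes was 152, for Osm. Levels are given as CPM (counts scaled to a common library size), with edgeR's TMM factors. They are relative to the other genes of a library, so a rise or fall need not be a change in the amount per cell. The summed level of the T cell markers Cd3d, Cd3e, Cd3g, Cd8a and Cd8b1 was 2169 to 4123 CPM. The B cell, myeloid, CD4 and Foxp3, and red cell lists each summed to at most 6.10 CPM, with Ms4a1, a defining B cell gene, at 0 in every library. The NK cell markers Klrb1c and Ncr1 summed to 83.4 to 94.96 CPM at the start and 8.27 to 53.5 CPM after 24 h, with Ncr1 at 0 in 3 groups, and their part in the results was not tested. In RNA from whole cultures, fewer cells that express a gene and less RNA per cell cannot be told apart.

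With IL-2 at pH 7.4, the genes that rose most were Osm and Cish, and the smallest effect was that of Pim1. Socs2 (95% interval 1.76 to 2.15 on the log2 scale) and Socs1 (1.48 to 2.16) came next, with overlapping intervals. The genes were not tested against each other. IL-2 raised Osm 9.95-fold, Cish 8.59-fold, Socs2 3.88-fold, Socs1 3.53-fold, Pim2 2.20-fold and Pim1 1.28-fold, and it lowered Socs3 to 0.642-fold. So 6 genes were higher and 1 lower with IL-2, where 80.4% of all 13819 genes passed in either direction, 39.3% as higher and 41.1% as lower (edgeR's quasi-likelihood test, Benjamini-Hochberg adjusted p under 0.05). The median log2 fold change of the 7 genes was 1.82, beside -0.04 over all genes tested.

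At pH 6.6 the IL-2 effect was smaller for 4 of the 7 genes, not detectably different for Socs1 and Pim2, and of the opposite sign for Socs3. There, 6 genes were higher with IL-2 and Pim1 did not pass, where 23.7% of all genes passed in either direction and 13.2% were higher. Their median log2 fold change was 1.18, beside -0.04 over all genes. The difference between the IL-2 effects at pH 6.6 and pH 7.4, which is also the difference between the pH effects with and without IL-2, passed the threshold for 5 of the 7 genes and for 67.0% of all genes. It was negative for Socs2, Osm, Cish and Pim1 and positive for Socs3. The share of reads that the counting assigned to no feature also moved with these conditions. It was 3.91 to 5.18% with IL-2 at pH 7.4, 7.34 to 8.83% with IL-2 at pH 6.6 and 6.47 to 10.2% without IL-2 at these pH values. Its part in the results was not tested.

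**Figure D1:**
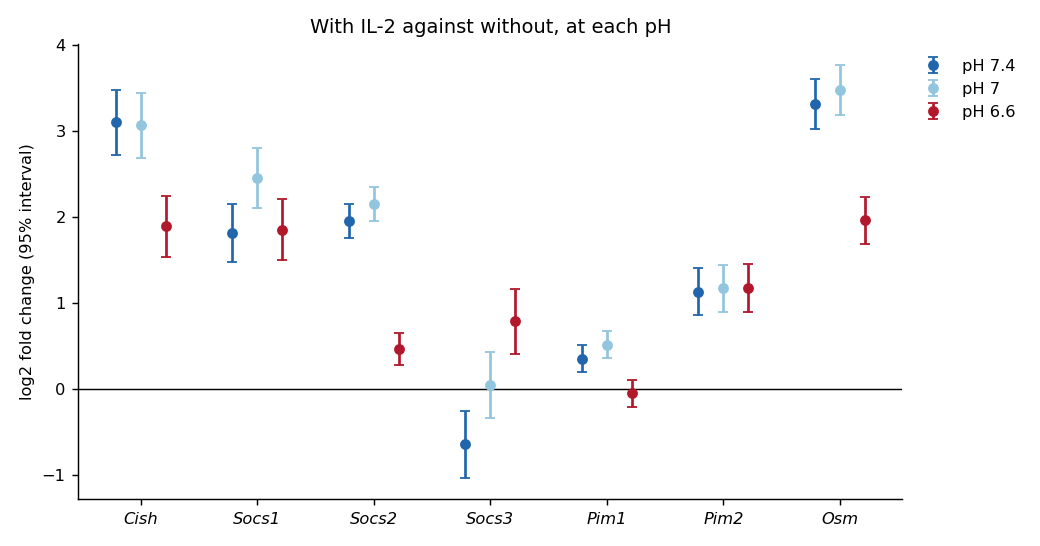
Log2 fold change of each gene for IL-2 against no IL-2 at pH 7.4, pH 7 and pH 6.6 (y axis), with 95% intervals from the edgeR fit of 5 replicates per group. Cish, Socs2 and Osm have lower points at pH 6.6 than at the other pH values, the points of Socs1 and Pim2 at pH 6.6 and pH 7.4 lie within each other's intervals, and Socs3 goes from -0.64 at pH 7.4 to 0.79 at pH 6.6.

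Acid did not move the 7 genes in 1 direction. With IL-2, pH 6.6 raised Socs3 4.02-fold and Pim1 1.81-fold against pH 7.4, lowered Socs1 to 0.557-fold, Pim2 to 0.569-fold and Osm to 0.635-fold, and Cish and Socs2 did not pass the test. These were 2 higher and 3 lower, where 76.3% of all genes passed, 35.4% as higher and 40.9% as lower. Without IL-2, pH 6.6 raised Socs2, Pim1, Cish, Osm and Socs3 and lowered Socs1 and Pim2, so all 7 genes passed, where 67.0% of all genes did, 31.6% as higher and 35.4% as lower. Both pH comparisons and both IL-2 comparisons at these pH values were drawn from the same 4 groups, so they are not independent of each other.

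**Figure D2:**
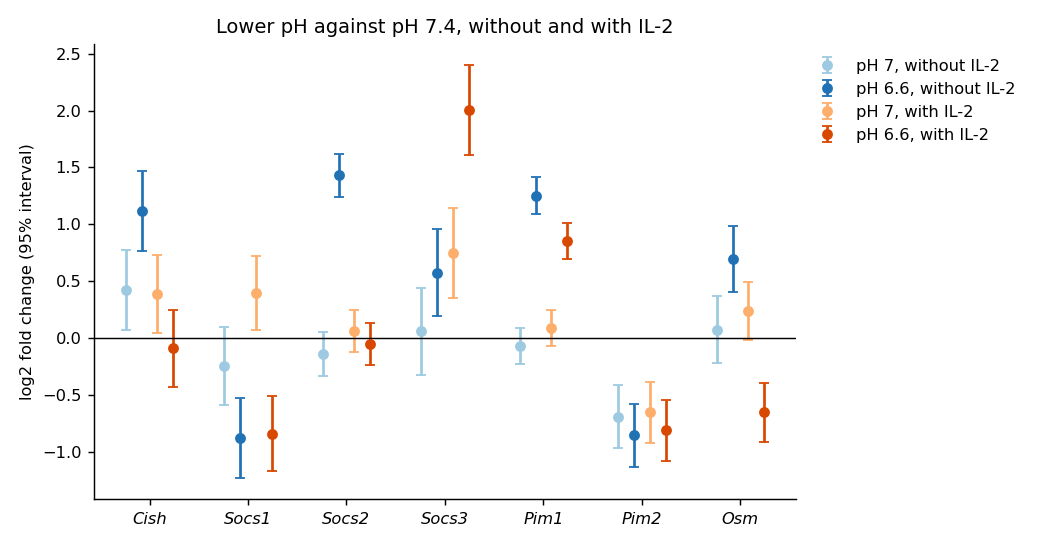
Log2 fold change of each gene at pH 7 or pH 6.6 against pH 7.4, without IL-2 (blue) and with IL-2 (orange), with 95% intervals from the edgeR fit of 5 replicates per group. At pH 6.6, Socs1 and Pim2 are below 0 and Pim1 and Socs3 above 0 both with and without IL-2, whereas Cish, Socs2 and Osm are above 0 only without it.

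Cish encodes CIS, a brake that cytokines induce and that is known to restrain CD8+ T cells. With IL-2 at pH 7.4, Cish was at 423, 423, 414, 443 and 407 CPM in replicates 1 to 5. Without IL-2 at pH 7.4 it was at 49.9, 38.3, 35.4, 55.7 and 70.03 CPM, so the ranges were far apart. With IL-2 at pH 6.6 it was at 357, 356, 306, 519 and 472 CPM. These 5 libraries straddled the narrow range at pH 7.4, with replicates 1 to 3 below it and replicates 4 and 5 above it. Without IL-2 at pH 6.6 it was at 71.1, 105, 103, 130 and 132 CPM, each above every library without IL-2 at pH 7.4.

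The difference of Cish at pH 6.6 from pH 7.4 with IL-2 was -0.09 on the log2 scale, with a 95% interval of -0.44 to 0.25 (edgeR, adjusted p = 0.62). Without IL-2 Cish rose by 1.11 ± 0.17 (SE) at pH 6.6, in 5 of 5 pairs of replicates (edgeR, adjusted p = 1.55e-06). The smaller IL-2 effect at pH 6.6, 1.90 against 3.10 at pH 7.4, therefore went with a higher level without IL-2 rather than a detectably lower one with it. The difference of the 2 effects was -1.21 ± 0.24 (SE) and negative in 5 of 5 replicates (edgeR, adjusted p = 5.8e-05).

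Socs2 encodes a brake best known for restraining growth hormone signaling through STAT5. With IL-2 it was at 110, 86.4, 99.2, 79.5 and 70.4 CPM at pH 7.4 and at 85.8, 85.5, 102, 77.3 and 76.5 CPM at pH 6.6. The ranges overlapped, and the difference of -0.06 had a 95% interval of -0.24 to 0.13 (edgeR, adjusted p = 0.585). Without IL-2 it was at 20.1, 22.97, 24.3, 26.3 and 20.5 CPM at pH 7.4 and at 58.3, 71.4, 70.7, 57.9 and 50.3 CPM at pH 6.6. Every library at pH 6.6 was above every library at pH 7.4, a rise of 1.43 ± 0.09 (SE) on the log2 scale (edgeR, adjusted p = 1.95e-14).

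Of the 7 genes, Socs2 had the most negative difference of the IL-2 effect at pH 6.6 from that at pH 7.4, at -1.49 ± 0.13 (SE; edgeR, adjusted p = 8.43e-12). Its IL-2 effect at pH 6.6 was 0.47, and the 2 groups at pH 6.6 still did not overlap (edgeR, adjusted p = 0.000218). Of all genes tested, 8.92% had a more negative value of that difference.

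Osm, the cytokine of the set, was at 64.6, 77.8, 78.8, 76.8 and 84.5 CPM with IL-2 at pH 7.4 and at 6.95, 8.09, 8.09, 6.34 and 8.86 CPM without it. With IL-2 at pH 6.6 it was at 41.4, 41.2, 36.6, 65.8 and 57.8 CPM. Replicates 4 and 5 were the highest there, as they were for Cish, and replicate 4 overlapped the range at pH 7.4. Without IL-2 at pH 6.6 it was at 9.34, 10.7, 13.9, 13.8 and 14.9 CPM, above every library at pH 7.4.

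Osm moved in opposite directions at pH 6.6, falling by 0.66 on the log2 scale with IL-2 (edgeR, adjusted p = 2.33e-05) and rising by 0.70 without it (edgeR, adjusted p = 7.31e-05). Each direction was seen in 5 of 5 pairs. The IL-2 effect was accordingly 1.96 at pH 6.6 against 3.32 at pH 7.4, and the difference was -1.35 ± 0.19 (SE; edgeR, adjusted p = 1.95e-07). Osm remained 3.90-fold higher with IL-2 than without it at pH 6.6, and 1.05% of all genes tested had a higher log2 fold change in that comparison.

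Socs1 encodes a brake that inhibits JAK kinases directly, and it was lower in acid with or without the cytokine. With IL-2 it was at 87.4, 64.1, 68.7, 57.7 and 52.2 CPM at pH 7.4 and at 38.1, 33.02, 30.03, 39.7 and 40.4 CPM at pH 6.6. Without IL-2 it was at 23.2, 21.8, 18.3, 14.5 and 15.5 CPM at pH 7.4 and at 10.4, 9.51, 8.18, 13.1 and 9.11 CPM at pH 6.6. Neither pair of ranges overlapped. Socs1 fell by 0.84 on the log2 scale with IL-2 (edgeR, adjusted p = 2.37e-05) and by 0.88 without it (edgeR, adjusted p = 5.27e-05).

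IL-2 raised Socs1 by 1.82 at pH 7.4, by 2.46 at pH 7 and by 1.85 at pH 6.6. The difference of the effects at pH 6.6 and pH 7.4 was 0.04, with a 95% interval of -0.44 to 0.52 (edgeR, adjusted p = 0.898). The ratio of mean CPM with IL-2 to without it was 3.54 at pH 7.4 and 3.60 at pH 6.6.

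Pim2, a kinase controlled mainly through its own abundance, was also lower in acid in both settings. With IL-2 it was at 113, 111, 119, 108 and 142 CPM at pH 7.4 and at 85.8, 55.5, 56.8, 73.2 and 66.4 CPM at pH 6.6. Without IL-2 it was at 50.3, 62.0, 56.1, 46.8 and 54.9 CPM at pH 7.4 and at 25.7, 34.01, 37.0, 24.0 and 28.3 CPM at pH 6.6. The libraries at pH 6.6 were below all those at pH 7.4 in both settings. Pim2 fell by 0.81 with IL-2 (edgeR, adjusted p = 1.76e-06) and by 0.86 without it (edgeR, adjusted p = 1.82e-06).

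The IL-2 effect on Pim2 was 1.13 at pH 7.4, 1.17 at pH 7 and 1.18 at pH 6.6. The effect at pH 6.6 differed from that at pH 7.4 by 0.04, with a 95% interval of -0.34 to 0.43 (edgeR, adjusted p = 0.859).

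Pim1, the other PIM kinase, went the opposite way at pH 6.6. With IL-2 it was at 135, 174, 170, 193 and 179 CPM at pH 7.4 and at 242, 355, 327, 303 and 307 CPM at pH 6.6. Without IL-2 it was at 118, 127, 127, 145 and 147 CPM at pH 7.4 and at 255, 350, 316, 334 and 328 CPM at pH 6.6. All libraries at pH 6.6, with or without IL-2, were above all those at pH 7.4, and replicate 1 was the lowest at pH 6.6 in both.

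Pim1 rose by 0.85 ± 0.08 (SE) with IL-2 (edgeR, adjusted p = 1.12e-11) and by 1.25 ± 0.08 (SE) without it (edgeR, adjusted p = 6.5e-15). IL-2 raised it by 0.36 at pH 7.4 (edgeR, adjusted p = 0.000111), while at pH 6.6 the IL-2 difference was -0.04, with a 95% interval of -0.20 to 0.11 (edgeR, adjusted p = 0.723). The difference of these effects was -0.40 ± 0.11 (SE; edgeR, adjusted p = 0.00187). The IL-2 effect on Pim1 was highest at pH 7, at 0.52.

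Socs3 stood apart from the other brakes. With IL-2 it was at 15.1, 12.8, 14.1, 18.4 and 20.3 CPM at pH 7.4, at 23.9, 24.0, 26.9, 30.1 and 29.1 CPM at pH 7 and at 40.4, 48.7, 48.4, 111 and 82.8 CPM at pH 6.6. The ranges at the 3 pH values did not overlap, and replicates 4 and 5 were the highest at each. Without IL-2 it was at 31.5, 23.1, 22.2, 20.6 and 26.1 CPM at pH 7.4 and at 25.9, 28.2, 35.8, 53.5 and 45.3 CPM at pH 6.6, where the ranges overlapped and replicate 1 was lower at pH 6.6.

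Socs3 rose by 2.01 ± 0.19 (SE) at pH 6.6 with IL-2 (edgeR, adjusted p = 8.98e-11), and 4.67% of all genes tested had a higher log2 fold change. Without IL-2 it rose by 0.57 ± 0.19 (SE; edgeR, adjusted p = 0.00853), a call that was lost without the replicate 4 libraries (0.38, adjusted p = 0.0627). IL-2 lowered Socs3 by 0.64 at pH 7.4 in 5 of 5 pairs (edgeR, adjusted p = 0.00336), did not detectably change it at pH 7 (0.05, 95% interval -0.34 to 0.43, adjusted p = 0.822) and raised it by 0.79 at pH 6.6 in 5 of 5 pairs (edgeR, adjusted p = 0.00198). The effects at pH 6.6 and pH 7.4 differed by 1.43 ± 0.27 (SE), and the difference was positive in 5 of 5 replicates (edgeR, adjusted p = 2.42e-05).

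A stretch near a Socs3 start is shown because it holds a match to the STAT motif TTCNNNGAA. The windows searched were the 250 bases before each RefSeq start in GRCm38.p6, and 5 genes of the set had one (Cish, Socs1, Socs3, Pim1 and Pim2). Socs3 alone held a match, but the windows are not all upstream of the gene in GENCODE M21, since 77 of the 250 bases for Socs3 and all 250 for Cish lie in annotated exons. The motif reads the same on both strands, and 7.02% of 32851 promoter windows held at least 1 match. The match in Socs3 began 154 bases before the RefSeq start, at -154. The printed stretch lies 517 bases inside the GENCODE start of the gene, and 0 of its 29 bases are in an annotated exon, so it is intronic in the transcript model that starts farthest upstream. The stretch on the minus strand at chr11:117969502-117969530 is written 5′ to 3′ with the match in capitals.
Socs3: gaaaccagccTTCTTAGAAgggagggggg
A match, or the lack of one, is a description of the letters in these windows and says nothing of binding. Bases outside the windows were not searched, including known distal sites and the bases before the GENCODE start of Cish.

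**Figure D3:**
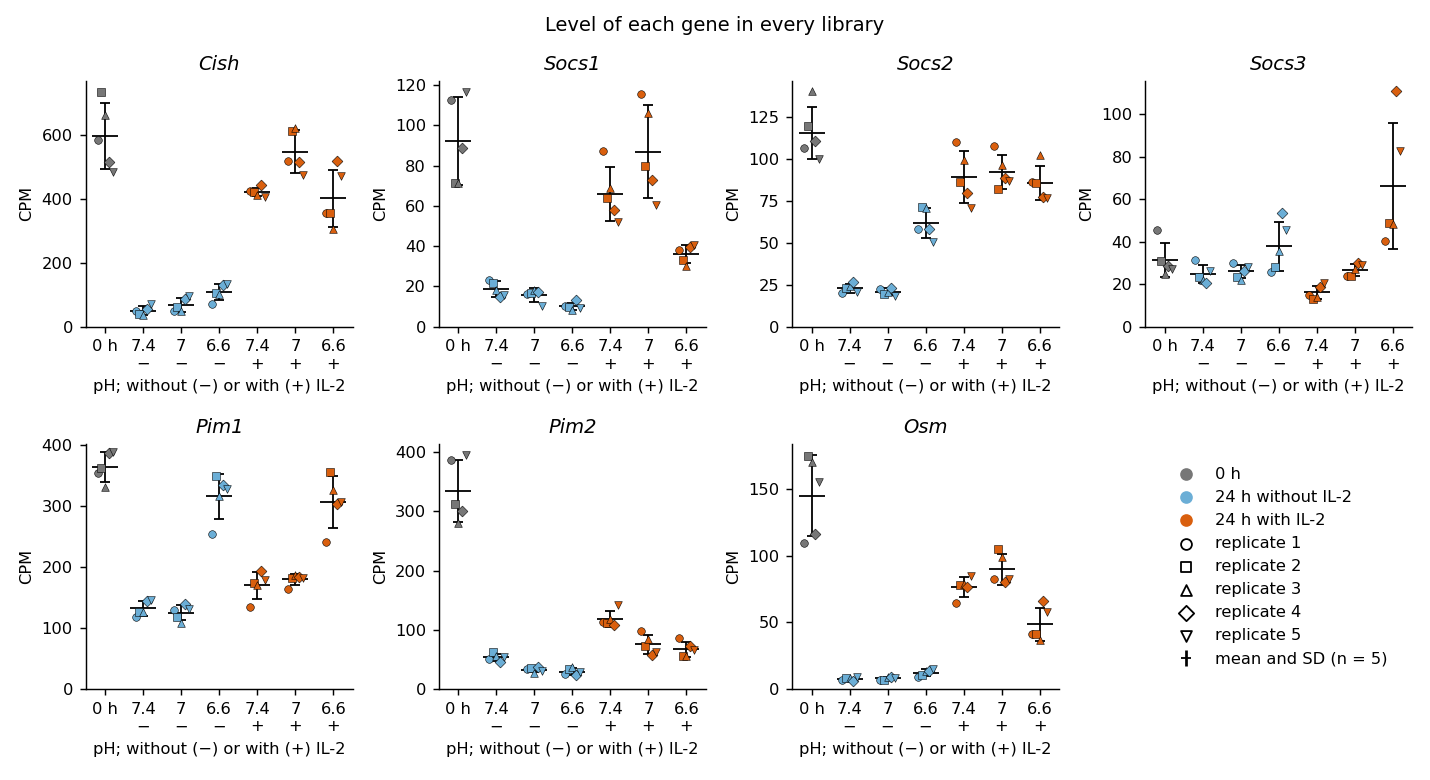
Level of each gene in CPM (y axis, starting at 0) in every library, at the start (grey) and after 24 h at each pH without IL-2 (blue) or with IL-2 (orange), with a symbol per replicate number and the mean and SD of 5 replicates as lines. Pim2 and Osm at the start lie above every later library, Pim1 is higher in both groups at pH 6.6 than in the other groups after 24 h, and the spread of Socs3 is widest at pH 6.6 with IL-2.

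Fewer of the genes passed the test in the milder acid. With IL-2, pH 7 raised Socs3 by 0.75 ± 0.19 (SE; edgeR, adjusted p = 0.00644) and lowered Pim2 by 0.65 ± 0.13 (SE; edgeR, adjusted p = 0.000746), so 1 of the 7 genes was higher and 1 lower, where 9.15% of all genes were higher and 9.83% lower. The call of Socs3 was lost without the replicate 2 libraries (0.70, adjusted p = 0.052) or the replicate 3 libraries (0.70, adjusted p = 0.055). Cish was at 517, 613, 623, 514 and 474 CPM at pH 7, above every library at pH 7.4, but its difference of 0.39 did not pass over all genes (95% interval 0.04 to 0.73, edgeR, adjusted p = 0.106). The log2 differences of Socs1 and Osm were 0.40 (edgeR, adjusted p = 0.0787) and 0.24 (edgeR, adjusted p = 0.185). With only these groups in the fit, Cish (adjusted p = 0.000916), Socs1 (adjusted p = 0.000499) and Osm (adjusted p = 0.0158) passed, where 4388 genes passed in place of 2623. Socs1 also passed without replicate 5 (0.43, adjusted p = 0.0393).

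Without IL-2, pH 7 lowered Pim2 by 0.69 ± 0.13 (SE; edgeR, adjusted p = 0.00324), and the other 6 genes did not pass, where 1.68% of all genes did and 0.318% were lower. Without the replicate 2 libraries the call of Pim2 was lost at nearly the same value (-0.67, adjusted p = 0.0525). Pim2 was at 98.7, 73.6, 84.3, 58.5 and 63.6 CPM with IL-2 at pH 7, and the further difference to pH 6.6 was -0.16 (95% interval -0.43 to 0.11, edgeR, adjusted p = 0.28).

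From pH 7 to pH 6.6 with IL-2, Socs1 fell by 1.24, Osm by 0.89 and Cish by 0.48, and Socs3 and Pim1 rose by 1.26 and 0.76. These were 2 higher and 3 lower, where 32.5% of all genes were higher and 40.0% lower. The adjusted p was 0.012 for Cish and at most 5.92e-07 for the other 4 (edgeR). The fall of Cish was lost without the libraries of replicate 1 (-0.39, adjusted p = 0.0679), replicate 2 (-0.32, adjusted p = 0.143) or replicate 3 (-0.34, adjusted p = 0.0972). Without IL-2, Socs2, Pim1, Cish, Osm and Socs3 were higher and Socs1 lower at pH 6.6 relative to pH 7, where 30.9% of all genes were higher and 35.7% lower. The call of Socs3 (0.52, edgeR, adjusted p = 0.0166) was lost without replicate 3 (adjusted p = 0.0581), 4 (adjusted p = 0.0628) or 5 (adjusted p = 0.0551), and with a looser filter on low counts (adjusted p = 0.0539).

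At pH 7 the IL-2 effects were 3.48 for Osm, 3.07 for Cish, 2.46 for Socs1 and 2.16 for Socs2, and 6 of the 7 genes were higher with IL-2, where 37.6% of all genes were. None of the 7 had an IL-2 effect that differed between pH 7 and pH 7.4 past the threshold, where 4.79% of all genes did. Among those that did not pass were Socs1 (0.64, edgeR, adjusted p = 0.108) and Socs3 (0.69, edgeR, adjusted p = 0.142), and DESeq2 also called 0 of the 7. With only the groups compared in the fit, Socs1 and Socs3 both passed (adjusted p = 0.00807 and 0.00643), where 1632 genes passed in place of 662. The IL-2 effects at pH 6.6 and pH 7 differed for 6 of the 7 genes and for 61.0% of all genes, and only Pim2 did not pass (0.00, 95% interval -0.38 to 0.39). The difference of Socs1 there, -0.60 (edgeR, adjusted p = 0.0283), was lost without the libraries of replicate 1 (-0.41, adjusted p = 0.22), replicate 2 (-0.53, adjusted p = 0.104) or replicate 4 (-0.61, adjusted p = 0.0504), and with a looser filter (-0.62, adjusted p = 0.0743).

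Cells in acid with IL-2 were also set against cells at pH 7.4 without it. All 7 genes were higher at pH 6.6 with IL-2 than at pH 7.4 without it, where 30.4% of all genes were. The log2 differences were 3.01 for Cish, 2.66 for Osm, 1.90 for Socs2, 1.37 for Socs3, 1.21 for Pim1, 0.97 for Socs1 and 0.32 for Pim2. The ranges overlapped for Pim2 alone, which was higher in 4 of 5 pairs (edgeR, adjusted p = 0.0364) and lost its call without replicate 1 (0.21, adjusted p = 0.192) or replicate 4 (0.23, adjusted p = 0.176), and with a looser filter on low counts (0.31, adjusted p = 0.0824). These groups differ in both pH and IL-2, and acid alone, without IL-2, had raised Socs2 by 1.43, Pim1 by 1.25, Cish by 1.11, Osm by 0.70 and Socs3 by 0.57. Acid alone had lowered Socs1 by 0.88 and Pim2 by 0.86.

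Before the 24 h culture, the cells had come from medium with IL-2 and had high levels. Reads with several alignments made up 39.3 to 48.3% of reads at the start and 32.8 to 40.6% after 24 h. Their part in the comparisons with the start was not tested. At the start Cish was at 596 ± 104 CPM (mean ± SD, n = 5), Pim1 at 364 ± 24.0, Pim2 at 334 ± 52.2, Osm at 145 ± 30.3, Socs2 at 115 ± 15.6, Socs1 at 92.1 ± 21.9 and Socs3 at 31.4 ± 8.10. After 24 h at pH 7.4 without IL-2, Osm was lowered to 7.67 ± 1.01 CPM and Cish to 49.9 ± 14.01 CPM. There, 6 of the 7 genes were lower than at the start, where 38.3% of all genes were, and Socs3 did not pass (-0.35, 95% interval -0.73 to 0.04, edgeR, adjusted p = 0.0967). The same 6 genes were lower at pH 7 (37.9% of all genes) and pH 6.6 (40.3% of all genes) without IL-2, and Pim1 at pH 6.6 had a log2 difference of -0.21 (edgeR, adjusted p = 0.0154). That call was lost without replicate 1 (-0.12, adjusted p = 0.132) or replicate 5 (-0.19, adjusted p = 0.0567), and in 4 other fits: without the replicate block (-0.20, adjusted p = 0.0574), with RLE normalization (-0.15, adjusted p = 0.0735), with DESeq2 (-0.15, adjusted p = 0.0635) and with only the groups compared (-0.16, adjusted p = 0.245).

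After 24 h with IL-2 at pH 7.4 all 7 genes were lower than at the start, where 30.9% of all genes were, with log2 differences from -0.38 for Socs2 to -1.49 for Pim2. At pH 7 with IL-2, 4 of the 7 genes were lower (27.7% of all genes), and Cish (-0.13, 95% interval -0.47 to 0.22), Socs1 (-0.10, 95% interval -0.42 to 0.22) and Socs3 (-0.24, 95% interval -0.62 to 0.15) did not pass. At pH 6.6 with IL-2, Socs3 was higher by 1.02 (edgeR, adjusted p = 1.82e-05) and the other 6 genes were lower, where 30.5% of all genes were higher and 38.0% lower. The fall of Pim1 to that group was 0.25, the smallest of the 6, and was lost without replicate 1 (-0.12, adjusted p = 0.137) or with only the groups compared in the fit (-0.21, adjusted p = 0.15).

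The genes can be compared with each other only per length of transcript. With IL-2 at pH 7.4, CPM per kilobase of exon was 65.7 ± 2.12 (SD, n = 5) for Cish, 50.6 ± 6.44 for Pim1, 42.4 ± 4.93 for Pim2, 33.7 ± 3.21 for Osm, 22.7 ± 4.64 for Socs1, 9.34 ± 1.64 for Socs2 and 5.59 ± 1.08 for Socs3. At pH 6.6 with IL-2, Pim1 was the highest at 91.3 ± 12.5 CPM per kilobase, ahead of Cish at 62.6 ± 13.97, and Socs3 at 22.9 ± 10.3 had passed Socs1 at 12.5 ± 1.55 and Socs2 at 8.97 ± 1.08. Without IL-2 at pH 7.4, Pim1 was the highest at 39.5 ± 3.73 and Socs2 the lowest at 2.39 ± 0.276. The exon length used is the union over all annotated transcripts, which may be longer than the transcripts these cells make. It was 6419 bases for Cish and 9531 for Socs2, but 3362 for Pim1 and 2891 for Socs3. In CPM at pH 6.6 with IL-2, Cish (402) was above Pim1 (307) and Socs2 (85.4) above Socs3 (66.2). Those orders per kilobase therefore rest on the lengths used. Without IL-2 at pH 7.4, the lowest in CPM was Osm at 7.67, below Socs2 at 22.8.

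The order of the 7 groups differed between the genes. For Cish the means ran from the start through pH 7, pH 7.4 and pH 6.6 with IL-2 to pH 6.6, pH 7 and pH 7.4 without IL-2. Among its neighbours in that order, only the steps from pH 6.6 with IL-2 to pH 6.6 without it (1.90) and on to pH 7 without IL-2 (0.69) passed the test. For Osm the order was the same, and the steps that did not pass were those between pH 7 and pH 7.4, with IL-2 (0.24) and without it (0.07). For Pim1 the order was the start, both groups at pH 6.6, both others with IL-2 and both others without it, and the 2 groups at pH 6.6 did not pass against each other. For Socs3 the order began with pH 6.6 with IL-2 and ended with pH 7.4 with IL-2, and of the 6 steps between neighbours only these first and last ones passed.

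**Figure D4:**
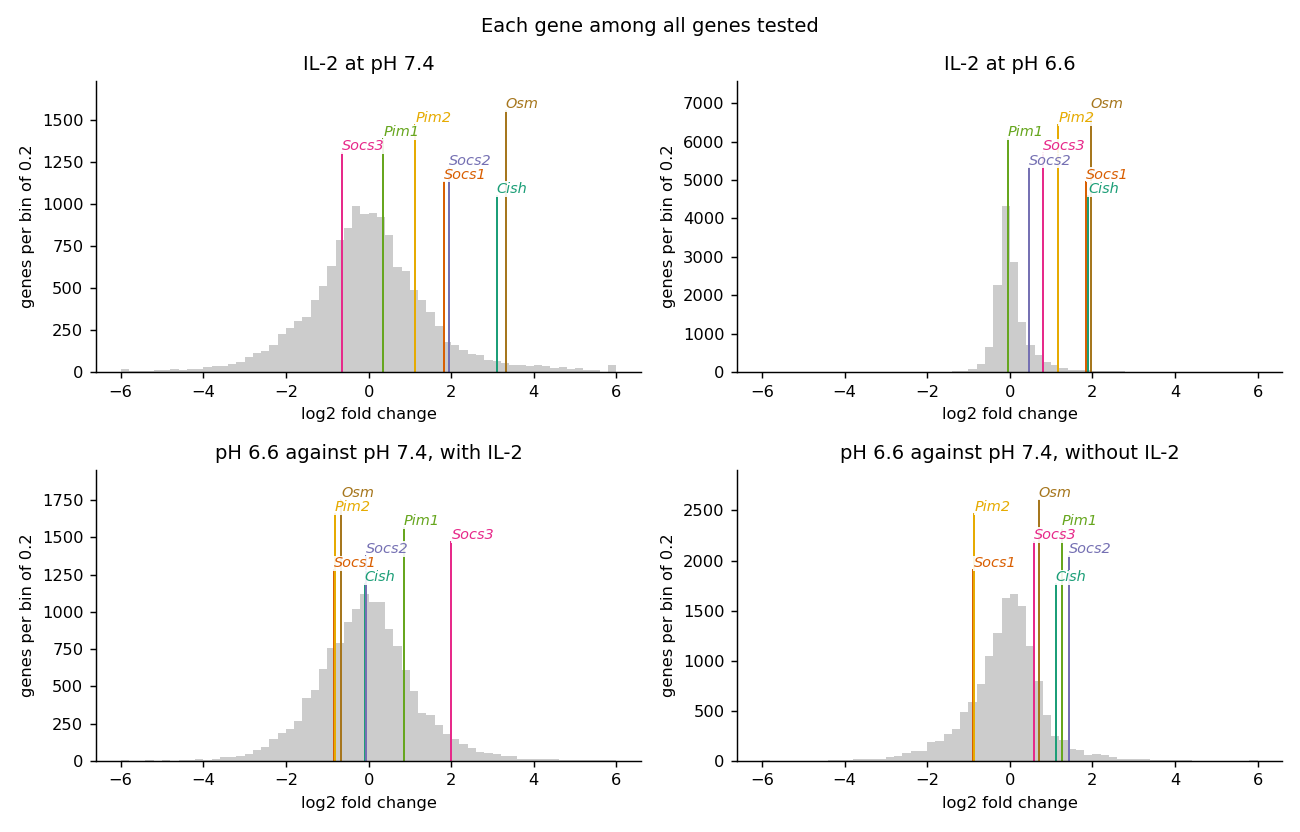
Number of genes tested in bins of 0.2 of the log2 fold change (grey bars, y axis, with values beyond 6 in the end bins) in 4 comparisons, with a coloured line at the value of each of the 7 genes. For IL-2 at pH 7.4, 2.79% of genes lie above Osm and 3.26% above Cish, and for pH 6.6 with IL-2 4.67% lie above Socs3, while Cish and Socs2 are near the centre.

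Over the 35 libraries the log2 CPM of Cish and Osm had a Pearson r of 0.97, the highest among the 21 pairs of the 7 genes. Socs3 had r from -0.16 with Socs1 to 0.56 with Pim1. The genes outside the set with the most similar profiles, among the 9000 compared (mean log2 CPM 3 or more), were Treml2, Maff and Neb for Cish (r of 0.96 to 0.97), Tcrg-C1, Ly6g5b and P2ry14 for Socs1 (0.95 to 0.97) and Serpinb9, Golga7 and Sar1a for Socs2 (0.95 to 0.96). For Osm they were Tnfrsf9, Ccn3 and Myc (0.97 to 0.98), for Pim2 Dusp3, Jund and Vps8 (0.92 to 0.93), for Pim1 Eef1a1, Nlgn2 and Klf6 (0.93 to 0.94) and for Socs3 Zfp36, Clip2 and Camk2g (0.80 to 0.81). These are descriptions, since all values come from the same libraries, depths and group differences.

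Of the 5 other genes of the SOCS and PIM families, IL-2 raised 1 at pH 7.4, where 39.3% of all genes were higher. Pim3, the remaining PIM kinase, was at 65.1 ± 14.9 CPM (mean ± SD, n = 5) with IL-2 at pH 7.4 and 14.1 ± 4.49 without it, a rise of 2.21 ± 0.14 (SE; edgeR, adjusted p = 8.48e-16). At pH 6.6 the IL-2 effect on Pim3 was 0.39, and the difference of the effects was -1.81 ± 0.19 (SE; edgeR, adjusted p = 7.47e-10). In acid with IL-2, Pim1 was higher and Pim2 and Pim3 were lower, with a log2 difference of -1.12 for Pim3. Without IL-2, Pim1 and Pim3 (0.69) were higher in acid and Pim2 was lower.

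Of Socs4, Socs5, Socs6 and Socs7, which are less tied to cytokine induction, none passed as higher with IL-2 at pH 7.4. Socs4 fell by 0.57 and Socs5 fell by 0.35 on the log2 scale (edgeR, adjusted p = 0.000301 and 0.000672). Of all genes, 39.3% were higher and 41.1% lower in that comparison. Socs7 was raised by pH 6.6 with IL-2 (0.82, adjusted p = 3.53e-11) and without it (0.89, adjusted p = 1.91e-11). Over these 4 and Pim3, the median log2 fold change was -0.11 for IL-2 at pH 7.4 and 0.10 for pH 6.6 with IL-2, beside -0.04 and -0.07 over all genes.

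Upstream of the set are the IL-2 receptor chains, JAK1, JAK3 and both STAT5 genes. At pH 6.6 with IL-2, 3 of these 7 were higher and 2 lower relative to pH 7.4, where 35.4% of all genes were higher and 40.9% lower. Il2ra encodes the alpha chain of the high-affinity receptor and is itself a STAT5 target. It fell from 549 ± 10.9 to 361 ± 27.2 CPM (mean ± SD, n = 5). Il2rb, for the beta chain, which signals together with the gamma chain, fell by 0.79 on the log2 scale. Jak1 rose by 1.00, Jak3 by 0.67 and Stat5b by 0.56, and Stat5a (0.12, adjusted p = 0.231) and Il2rg (-0.06, adjusted p = 0.506), the shared gamma chain, did not pass. The IL-2 effect on Il2ra was 1.58 at pH 7.4 and 0.32 at pH 6.6, a difference of -1.26 ± 0.15 (SE; edgeR, adjusted p = 6.91e-09).

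There were 6 other brakes on JAK-STAT signaling on the list, and 3 of them were higher and 1 lower in acid with IL-2 (35.4% and 40.9% of all genes). The phosphatase Ptpn6 fell by 1.04 on the log2 scale, the Pias1 and Pias3 genes for inhibitors of STAT proteins rose by 0.78 and 1.42, and the adaptor gene Sh2b3 rose by 0.31. Ptpn1 and Ptpn2, phosphatases that act on JAK and STAT proteins, did not pass (-0.03 and -0.17). Without IL-2, 5 of the 6 were higher and Ptpn6 lower at pH 6.6 (31.6% and 35.4% of all genes).

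The 11 other genes on the list of IL-2 induced genes had a median log2 fold change of 2.23 with IL-2 at pH 7.4 and 1.07 at pH 6.6, with 9 higher and 2 lower at pH 7.4 (39.3% and 41.1% of all genes) and 8 higher at pH 6.6 (13.2%). In acid with IL-2, 8 of these 11 were lower and 2 higher (40.9% and 35.4% of all genes), with a median of -0.92. Gzmb, for granzyme B, fell by 3.27, Lta by 2.55, Prf1, for perforin, by 2.01 and Myc by 1.55, each more than any of the 7 genes of the set fell. Bcl2, a survival gene, had IL-2 effects of 1.52 at pH 7.4 and 1.60 at pH 6.6, while for Bcl2l1 they were 2.63 and 0.34.

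The 3 genes examined that IL-2 represses, Il7r, Bcl6 and Tcf7, had IL-2 effects of -5.68, -4.34 and -4.38 at pH 7.4 and of -0.69, -0.88 and -0.60 at pH 6.6, each past the threshold. Of the relatives and receptors of oncostatin M, Lif, a cytokine encoded beside Osm, was at 192 ± 19.3 CPM (mean ± SD, n = 5) with IL-2 at pH 7.4 and 27.4 ± 21.4 at pH 6.6, a fall of 3.05 (edgeR, adjusted p = 1.22e-06). Il6st, which encodes gp130, the chain shared by their receptors, rose by 0.91 in the same comparison (edgeR, adjusted p = 4.43e-11). Lifr was at most 0.869 CPM in any library after 24 h.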

How the data were processed

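RNA was measured in 35 libraries of OT-I CTLs. Libraries of polyadenylated RNA were stranded and read from 1 end on a HiSeq instrument, and the authors deposited raw counts per gene for each. Submitters' notes name cutadapt 1.8, STAR 2.5.2b, HTSeq 0.6.1 and GRCm38. The annotation and the strand setting are not given in the sources used here. Each table closes with 5 lines for reads on no gene, which were set aside. They included reads aligned to several places (32.8 to 48.3% of reads).

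In R 4.3.3, edgeR 4.0.16 kept 13819 genes (filterByExpr, minimum count 10) and scaled them by TMM. All libraries entered 1 robust quasi-likelihood model with group and replicate block as terms, and p-values were adjusted by Benjamini-Hochberg (threshold 0.05). Standard errors and 95% intervals were derived from its F statistics. The common biological coefficient of variation was 0.12. For CPM per kilobase, the exon union of GENCODE M21 was used. Every gene of the set was named, and the genes of the written lists and the 3 most similar profiles per gene could be named.

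The block was kept because the study's statistics were paired and because same-numbered libraries deviated together, with r over 0.1 in 5 of 5 pairs for each pH comparison and in 95 of 105 pairs over all groups (3 of 5 for the groups without IL-2 against the start). Titles number the replicates without saying what a number marks, so p-values measure the spread between these samples. No 2 libraries of a group were alike within counting noise (70 pairs, lowest chi-square per degree of freedom 6.17). The genes and the lists were chosen with earlier results of these data known.

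As alternatives, the fit was repeated with RLE normalization, with DESeq2 1.42.0, with a looser filter (1 count in any library), a stricter filter (10 counts in every library), no block, only the groups compared, and leaving out each replicate number from all groups. On simulated data for pH 6.6 against pH 7.4 with IL-2 (13423 genes tested), edgeR recovered 39 of 65 genes changed by 0.5 on the log2 scale, 59 of 66 by 1 and 64 of 64 by 2, with 4 false calls. Only a small set of genes was changed there, whereas 76.3% of all genes passed in the real comparison. The simulation therefore does not give the recovery or the false calls of that comparison.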

Additional observations from a re-analysis of the deposited data

Results flagged for a closer look

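Of the 49 sets of 5 libraries (7 genes in 7 groups), 3 held a library far from the other 4 by Dixon's criterion, and chance alone gives about 1 in 20. Socs1 at pH 7 without IL-2 was at 10.01 CPM in replicate 5, against 16.33 to 18.41 in the others. Socs3 at the start was at 45.39 CPM in replicate 1, against 24.96 to 30.80, and without the replicate 1 libraries Socs3 at pH 6.6 without IL-2 was higher than at the start (0.52, edgeR, adjusted p = 0.00435). Pim1 at pH 7 with IL-2 was at 165.1 CPM in replicate 1, against 182.4 to 187.3.

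The IL-2 effect differed between pH values by an interaction contrast for 6 of the 7 genes. Of all genes, 67.0% passed that contrast for pH 6.6 against pH 7.4 and 61.0% for pH 6.6 against pH 7. At pH 6.6 against pH 7.4 the log2 differences were -1.21 for Cish, -1.49 for Socs2, 1.43 for Socs3, -0.40 for Pim1 and -1.35 for Osm. At pH 6.6 against pH 7 they were -1.17 for Cish, -0.60 for Socs1, -1.69 for Socs2, 0.74 for Socs3, -0.56 for Pim1 and -1.52 for Osm. That of Socs3 at pH 6.6 against pH 7 was no longer past the threshold under the looser filter (0.73, adjusted p = 0.0606).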

How the results depend on the processing

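Over 19 comparisons and 11 alternatives, 1423 of 1463 values of the 7 genes kept their side of the threshold, 31 lost a call, 9 gained one and no call reversed. Of the 1423, 22 changed sign with neither value past the threshold. In the comparisons of pH 7 with pH 7.4, with only the groups compared in the fit, 5 of the 7 genes in place of 2 passed with IL-2, 2 in place of 1 without IL-2, and 2 in place of 0 for the difference of the IL-2 effect. Leaving out 1 replicate number gave 1 to 3 genes with IL-2 and 0 to 1 without it.

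Over all genes, the counts there moved likewise. With IL-2 the count was 2623, and it was 1660 with no replicate block, 4388 with only the groups compared and 1283 to 2425 without 1 replicate number. Without IL-2 it was 232, and it was 56, 942 and 35 to 332. For the difference of the IL-2 effect it was 662, and it was 177 with no block, 1632 with only the groups compared, 1016 with DESeq2, 326 with the looser filter and as low as 98 without replicate 3. For IL-2 at pH 6.6 it was 3278, 5369 with only the groups compared and 2119 without replicate 4. The cause was not tested.

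The replicate pairing changed 1 call of the 7 genes: without the block, Pim1 at pH 6.6 without IL-2 against the start was -0.20 (adjusted p = 0.0574, beside -0.21 and 0.0154 with it). With only the groups compared, Cish at pH 7 without IL-2 passed against pH 7.4 (0.42, adjusted p = 0.0205), as did Socs3 at pH 7.4 without IL-2 against the start (-0.33, adjusted p = 0.021). Calls lost without a replicate number also included Cish against the start with IL-2 at pH 7.4 (adjusted p = 0.0542) and pH 6.6 (adjusted p = 0.0568) without replicate 2, Socs2 at pH 7 with IL-2 (adjusted p = 0.0672) without replicate 3 and Socs1 at pH 7.4 with IL-2 (adjusted p = 0.0841) without replicate 5. Depth was least for Osm, with 152 counts in its lowest library.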
